A study of Mus musculus with 30 samples.

Results

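The genes described are 9 markers of the loop of Henle, the distal nephron and the collecting duct: Umod, Slc12a1, Kcnj1, Slc12a3, Calb1, Aqp2, Aqp3, Scnn1a and Atp6v1b1. They were taken by symbol from the deposited gene count tables, and all 9 were found among 48709 genes. The tables are from kidney, spleen, muscle, liver and brain. The adult mice, of strain C57BL/6, were either wild type (WT) or had 1 functional copy of Ctcf (Ctcf+/-, heterozygous). Each tissue has 3 WT and 3 heterozygous libraries, 30 in all, and the 2 genotypes share strain and stage. The study asks how Ctcf dosage affects the transcriptome of different tissues. The product of Ctcf is a DNA-binding factor known for anchoring chromatin loops. The labels name no Cre, transgene or treatment, and they do not say which region of the kidney was taken.

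The thick ascending limb reclaims salt without water, the distal convoluted tubule adjusts sodium, calcium and magnesium, and the collecting duct sets the final water, potassium and acid content of urine. Each step uses a small set of transporters and channels that are commonly used to mark its cells. In bulk tissue, fewer cells of a type and less RNA per cell cannot be told apart, so each level below is one of RNA in the tissue and not of cells.

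All levels are CPM, counts scaled to a common library size, after trimmed mean of M values (TMM) scaling within a tissue, given as mean ± SD with n = 3 libraries of each genotype. Total counts ran from 49.8 M to 131.6 M per library and from 82.5 M to 100.2 M in kidney. The summed level of 4 markers of each tissue was high in all 6 libraries of that tissue, from 17172 to 22796 CPM in kidney and from 3197 to 3744 CPM in spleen. Ctcf itself was at 61.4% of its WT level in heterozygous kidney, 62.1% in brain, 63.4% in liver, 67.2% in muscle and 65.3% in spleen, with no overlap between genotypes in any tissue.

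On GRCm38 the 9 genes lie on 7 chromosomes. The thick ascending limb genes are Umod (ENSMUSG00000030963, chr7:119462711-119479282, minus strand), Slc12a1 (ENSMUSG00000027202, chr2:125152505-125230002, plus strand) and Kcnj1 (ENSMUSG00000041248, chr9:32372418-32399192, plus strand). Those of the distal convoluted and connecting tubule are Slc12a3 (ENSMUSG00000031766, chr8:94329201-94366214, plus strand) and Calb1 (ENSMUSG00000028222, chr4:15881264-15908064, plus strand). Principal cells of the collecting duct are marked by Aqp2 (ENSMUSG00000023013, chr15:99579056-99584545, plus strand), Aqp3 (ENSMUSG00000028435, chr4:41092722-41098183, minus strand) and Scnn1a (ENSMUSG00000030340, chr6:125320659-125344943, plus strand). Intercalated cells are marked by Atp6v1b1 (ENSMUSG00000006269, chr6:83742990-83758855, plus strand). Counts cover the exons. Of the exon bases of Umod, 19.5% also belong to Gm44588, and fragments there were left out by the authors' counting, so its level is uncertain. The other 8 genes share 0 exon bases with another gene.

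The start regions of 4 of the genes are shown because their levels in WT spleen divide them: Umod and Aqp2 were at 0 counts in each WT spleen library, whereas Slc12a3 and Aqp3 were counted in all of them. Each run is the 250 bases before the RefSeq start on GRCm38.p6, 5′ to 3′ on the strand of the gene. Capitals mark 3 short motifs, searched on both strands. The letters GTTAAT belong to sites of HNF1 factors, which act in tubule cells. Sites of GATA factors are marked by the letters AGATAA. The TATA box is searched as TATAAA.
Umod, chr7:119479263-119479512, minus strand: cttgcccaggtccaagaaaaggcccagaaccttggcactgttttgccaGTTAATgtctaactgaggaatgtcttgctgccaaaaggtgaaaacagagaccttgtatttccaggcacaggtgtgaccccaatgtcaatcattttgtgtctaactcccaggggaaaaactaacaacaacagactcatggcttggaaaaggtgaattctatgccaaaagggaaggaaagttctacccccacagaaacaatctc
Aqp2, chr15:99578806-99579055, plus strand: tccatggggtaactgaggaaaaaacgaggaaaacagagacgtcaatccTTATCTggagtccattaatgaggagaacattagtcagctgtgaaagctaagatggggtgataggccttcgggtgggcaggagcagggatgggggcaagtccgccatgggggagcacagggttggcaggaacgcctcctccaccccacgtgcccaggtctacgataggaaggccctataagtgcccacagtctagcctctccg
Slc12a3, chr8:94328958-94329207, plus strand: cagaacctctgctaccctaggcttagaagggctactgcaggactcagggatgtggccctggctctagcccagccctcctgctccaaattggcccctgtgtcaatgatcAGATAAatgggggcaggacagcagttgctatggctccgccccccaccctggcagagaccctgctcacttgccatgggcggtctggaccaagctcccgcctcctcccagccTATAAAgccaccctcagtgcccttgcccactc
Aqp3, chr4:41098184-41098433, minus strand: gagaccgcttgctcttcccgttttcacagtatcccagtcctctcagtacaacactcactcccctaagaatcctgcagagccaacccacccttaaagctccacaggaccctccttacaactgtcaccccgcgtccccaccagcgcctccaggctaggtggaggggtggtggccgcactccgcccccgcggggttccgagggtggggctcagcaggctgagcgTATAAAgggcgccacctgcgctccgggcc
The GTTAAT of Umod begins 202 bases before its start. The GATA letters begin 142 bases before the start of Slc12a3 and, on the opposite strand (read as TTATCT), 202 bases before that of Aqp2. TATAAA begins 32 bases before the start of Slc12a3 and 29 before that of Aqp3.

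Of the 9 genes, 7 had a start region in the table. Among these 7, GTTAAT was in 1, AGATAA in 2 and TATAAA in 2, and none of these 3 motifs overlaps another. Over 32851 mouse start regions of the same length the shares holding them on either strand were 6.43%, 9.99% and 12.4%. CCCTC, the core of CTCF motifs, was in 3 of the 7 (Aqp3, Atp6v1b1 and Slc12a3) and in 60.5% of all. A match describes letters only, and binding was not measured.

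In WT kidney every one of the 9 genes was well counted. Umod, which encodes uromodulin, a protein that thick ascending limb cells secrete into urine, stood at 3764, 4077 and 3673 CPM in the 3 WT libraries. Per kilobase of exon, the scale on which genes can be compared, it led with 1389 ± 76.7 CPM per kb. The water channel gene Aqp2 followed at 295 ± 37.2 CPM per kb and overlapped with the salt cotransporter gene Slc12a1 at 266 ± 4.31. Kcnj1, encoding the potassium channel ROMK, was at 85.3 ± 3.76 CPM per kb, just apart from the calcium-binding protein gene Calb1 at 80.4 ± 1.79. Calb1 in turn overlapped with Slc12a3, encoding the thiazide-sensitive cotransporter, at 74.9 ± 5.56. Aqp3, the gene of a basolateral water and glycerol channel, was at 57.8 ± 8.16 CPM per kb. Atp6v1b1, encoding a proton pump subunit, and Scnn1a, encoding the alpha subunit of the epithelial sodium channel, were lowest, at 28.3 ± 0.196 and 27.6 ± 2.39 CPM per kb, and overlapped. Exon length here is that of all isoforms merged (11119 bases for Slc12a3), which lowers the value of a gene whose kidney transcript is shorter.

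**Figure D1:**
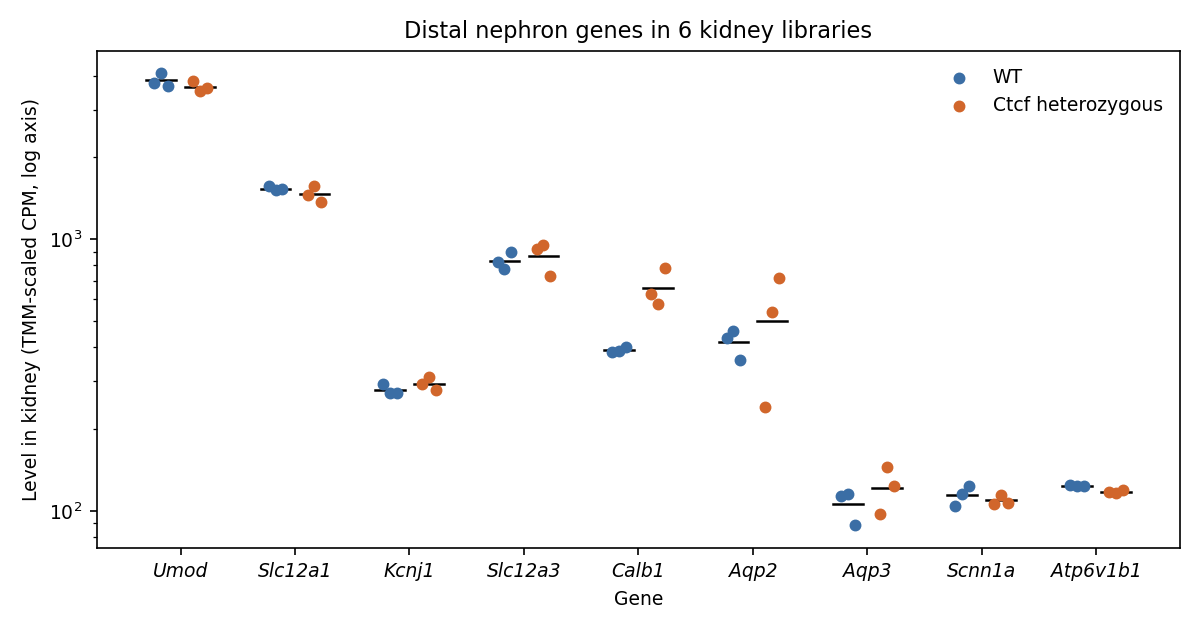
Level of each of the 9 genes in the 6 kidney libraries (TMM-scaled CPM, log axis), with points for libraries and black bars for the mean of each genotype (n = 3). Calb1 is the gene whose heterozygous libraries lie clearly above the WT libraries, and Aqp2 shows the widest spread.

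In heterozygous kidney 8 of the 9 genes lay within 0.26 log2 units of WT, and 0 of the 9 passed the threshold of an adjusted p under 0.05 (edgeR's quasi-likelihood test with Benjamini-Hochberg adjustment over 18937 genes, of which 0.0211% were called). At an unadjusted p under 0.05, 1 of the 9 passed, against 6.44% of all genes, and DESeq2 called that same gene, Calb1. With the replicate number as a block, 21 genes in place of 4 were called in kidney, and again 0 of the 9. The groups did not overlap for 1 gene that was higher in heterozygous kidney (6.15% of all genes) and for 1 that was lower (5.28% of all genes). The median log2 fold change of the 9 was 0.06, beside 0.0002 over all genes, and 5 of the 9 were above 0 (50.1% of all genes).

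In the thick ascending limb the 3 genes differed by less than the spread between libraries. Heterozygous libraries held Umod at 3834, 3503 and 3600 CPM, a log2 fold change of -0.07 (SE 0.10, edgeR adjusted p 0.999). Slc12a1, encoding the furosemide-sensitive cotransporter NKCC2, was at 1564, 1518 and 1524 CPM in WT and 1453, 1564 and 1372 CPM in heterozygous kidney. That gave a log2 difference of -0.07 (SE 0.09, edgeR adjusted p 0.999). Kcnj1, whose channel returns potassium to the tubule lumen for that cotransporter, was at 293, 272 and 271 CPM in WT and 293, 310 and 278 CPM in heterozygous kidney. That is a log2 fold change of 0.08 (SE 0.09, edgeR adjusted p 0.999). For each of these 3 genes the highest of the 6 libraries was no more than 1.16 times the lowest.

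Calb1 stood apart from the rest in kidney. It encodes calbindin-D28k, which buffers and carries calcium across cells of the distal convoluted and connecting tubule. WT libraries held it at 384, 386 and 400 CPM and heterozygous libraries at 629, 576 and 781 CPM. Every heterozygous library exceeded every WT library. The exact 2-sided permutation p, which ignores replicate numbers, was 0.1, the smallest that an unpaired test of 3 against 3 can give. The means were 389.8 ± 8.69 and 661.8 ± 106 CPM, a log2 fold change of 0.76 (SE 0.12, edgeR p 2.09e-04, adjusted p 0.158). DESeq2 (adjusted p 1.97e-06) and edgeR on all genes with at least 1 count (adjusted p 0.0310) called it, whereas with all 30 libraries in 1 edgeR fit its adjusted p was 1. The estimate ran from 0.63 to 0.85 when 1 library was left out, with adjusted p from 0.0520 without heterozygous library 3 to 0.548 without WT library 3.

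Slc12a3, the other gene of this segment, had another order of libraries. It was at 822, 777 and 900 CPM in WT and 920, 948 and 731 CPM in heterozygous kidney, so that heterozygous library 3 had the highest Calb1 and the lowest Slc12a3. On the log2 scale the difference was 0.06 (SE 0.12, edgeR adjusted p 0.999), or -0.01 without heterozygous library 2. Of the other 14 genes of the distal convoluted and connecting tubule, 0 were called. Slc8a1, encoding the sodium-calcium exchanger NCX1, was at 16.5, 20.4 and 17.3 CPM in WT and 26.0, 23.6 and 21.3 CPM in heterozygous kidney, with no overlap. Its log2 fold change was 0.39 (SE 0.11, edgeR p 0.00917, adjusted p 0.528). Genes of the same calcium route that the naming rule does not cover, picked here after their values were seen, were S100g, the small calbindin (log2 fold change -0.05, SE 0.20), and Trpv5, the apical calcium channel (0.06, SE 0.13), and for both the groups overlapped. Kcnj10, encoding a basolateral potassium channel, was lower in every heterozygous library (-0.23, SE 0.09, edgeR adjusted p 0.735).

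The principal cell genes gave no call. Aqp2, the vasopressin-regulated water channel of the luminal side, was at 432, 460 and 358 CPM in WT and 240, 538 and 720 CPM in heterozygous kidney. Heterozygous library 1 was the lowest of the 6 and heterozygous library 3 the highest, 2.996 times as high, while the WT libraries lay between them. The log2 fold change of 0.26 had an SE of 0.33 (edgeR adjusted p 0.999). It was 0.59 without heterozygous library 1, -0.10 without heterozygous library 3 and 0.13 with the replicate number as a block. Aqp3, on the basolateral side of the same cells, was at 114, 115 and 88.5 CPM in WT and 97.2, 145 and 123 CPM in heterozygous kidney, with a log2 fold change of 0.20 (SE 0.16, edgeR adjusted p 0.979). For this gene too the groups overlapped. Scnn1a was at 104, 115 and 124 CPM in WT and 106, 114 and 107 CPM in heterozygous kidney, -0.06 on the log2 scale (SE 0.09, edgeR adjusted p 0.999). Its partner subunit Scnn1b was at 41.7 ± 0.81 CPM in WT and 46.8 ± 1.99 CPM in heterozygous kidney without overlap (0.17, SE 0.08, edgeR adjusted p 0.794).

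The intercalated cell gene was the steadiest of the 9. Atp6v1b1, the kidney and inner ear form of a V-ATPase subunit, was at 124.9, 123.8 and 123.2 CPM in WT and 117.4, 116.3 and 119.4 CPM in heterozygous kidney. The 3 heterozygous libraries lay below the 3 WT libraries (exact permutation p 0.1), yet the highest library was only 1.07 times the lowest. On the log2 scale the difference was -0.07 (SE 0.07, edgeR adjusted p 0.999). Of the 14 other intercalated cell genes, 0 were called, 0 reached an unadjusted p under 0.05 and 0 had groups without overlap. The pump subunit genes Atp6v0a4 (-0.14, SE 0.10) and Atp6v0d2 (-0.12, SE 0.09) had the smallest p of that segment.

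Over the 58 other genes of these segments, all of them tested in kidney, 0 were called and the median log2 fold change was -0.04. Groups without overlap numbered 2 higher and 10 lower in heterozygous kidney, beside 6.15% higher and 5.28% lower over all genes. At an unadjusted p under 0.05 there was 1 higher gene and there were 6 lower (6.44% of all genes passed in either direction). Of these 6, 2 belong to the thick ascending limb, 1 to the distal tubule, 1 to the principal cell and 2 to the thin limb and inner medulla. Aqp4, a basolateral water channel gene of principal cells, was at 114, 115 and 89.6 CPM in WT and 54.0, 56.0 and 69.2 CPM in heterozygous kidney. No library of 1 genotype reached the other, and the log2 fold change was -0.83 (SE 0.13, edgeR p 2.07e-04, adjusted p 0.158). Slc14a2, encoding the urea transporter of the inner medullary collecting duct, was at 54.5, 52.1 and 48.2 CPM in WT and 24.4, 36.1 and 39.6 CPM in heterozygous kidney. Its log2 fold change was -0.63 (SE 0.16, edgeR p 0.00470, adjusted p 0.449). Slc4a11, of the same subset, was lower by a log2 fold change of -0.22 (SE 0.09). In the thick ascending limb Casr, the calcium-sensing receptor gene, had a log2 fold change of -0.50 (SE 0.21) and Cldn10, a tight junction gene, one of -0.26 (SE 0.09), each without overlap and with an edgeR adjusted p of 0.736 and 0.659.

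**Figure D2:**
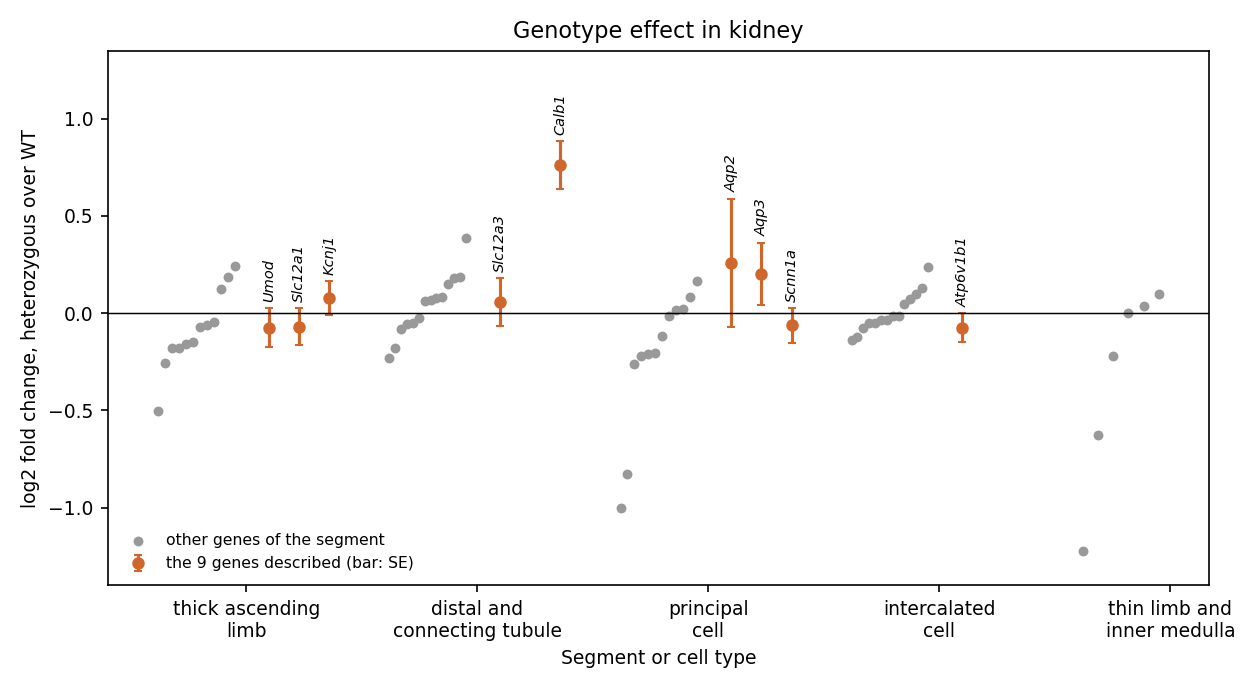
Log2 fold change in kidney, heterozygous over WT (n = 3 each), by segment or cell type: orange points with SE bars are the 9 genes, and grey points are the 58 other genes in order of value within a segment. Calb1 at 0.76 lies above every grey point of its segment, the highest of which is Slc8a1 at 0.39, and the lowest grey point of the figure is Akr1b3 at -1.22 (groups apart, edgeR p 0.0628).

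Some markers of other kidney cells also differed between the same libraries. All 6 podocyte markers were higher in each heterozygous library than in any WT library, with a summed level of 237 to 284 CPM in WT and 312 to 395 CPM in heterozygous kidney, and 0 of the 6 were called (6.15% of all genes were higher without overlap). Stroma and vascular smooth muscle markers had 3 of 6 genes apart and higher, with sums of 228 to 272 CPM and 299 to 395 CPM. Those of the proximal tubule overlapped, with sums of 28621 to 29366 CPM and 25867 to 30614 CPM. Sums also overlapped for endothelium (361 to 442 and 348 to 448 CPM) and adipocytes (75.2 to 429 and 183 to 332 CPM). The same held for urothelium (30.3 to 77.0 and 31.6 to 44.9 CPM, 1 gene apart and lower). Leukocyte sums overlapped too (71.5 to 80.1 and 78.2 to 96.4 CPM, 2 genes apart and higher). Adrenal cortex markers summed to 4.37 to 4.70 CPM in WT and to 4.73, 32.6 and 59.8 CPM in heterozygous libraries 1, 2 and 3. Hepatocyte markers summed to 79.5 to 102 CPM in WT and 137 to 426 CPM in heterozygous kidney, with 1 of 6 genes apart. The liver list of 4 tissue markers summed to 114 to 133 CPM in WT. In heterozygous libraries 1, 2 and 3 that list summed to 58.6, 48.6 and 325 CPM, with 1 gene apart and lower. Skeletal muscle markers summed to 144 CPM in WT library 3 and 182 CPM in heterozygous library 3, and to at most 0.259 CPM in the other 4 libraries. The part of these other cells' transcripts in the Calb1 and Aqp4 differences was not tested.

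Across WT tissues the 9 genes were highest in kidney. In the fit of the 15 WT libraries, 8 of 9 were called higher in kidney than in brain (36% of 22933 genes were), 8 of 9 than in liver (29.4%), 9 of 9 than in muscle (35.9%) and 9 of 9 than in spleen (39.2%). TMM scaling across tissues, as against total counts, shifted kidney over liver by -0.998 and kidney over muscle by -1.17 log2 units, and over brain and spleen by 0.10 and 0.17. Every member's call of higher in kidney held under each alternative, total-count scaling included. The 2 exceptions, each with a level of its own in another tissue, were Calb1 in brain and Scnn1a in liver.

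Calb1 had its second site in brain, where calbindin is a known marker of Purkinje cells and some interneurons. WT brain held it at 180, 167 and 168 CPM and heterozygous brain at 182, 175 and 158 CPM. The genotypes overlapped, with a log2 fold change of -0.0005 (SE 0.07, edgeR adjusted p 0.99999). Over WT brain the kidney level was 1.28 log2 units higher (SE 0.62, edgeR adjusted p 0.0797). The 3 libraries of each tissue did not overlap, and a fit of these 6 libraries alone called the difference (adjusted p 1.97e-07).

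Scnn1a was counted in 4 tissues outside kidney. Liver held it at 34.2, 27.6 and 38.3 CPM in WT and 37.7, 33.7 and 46.6 CPM in heterozygous libraries, with overlap (log2 fold change 0.24, SE 0.17, edgeR adjusted p 0.9999). WT kidney exceeded WT liver by 0.81 log2 units (SE 0.38, edgeR adjusted p 0.0832), a value that was 1.79 with total counts (adjusted p 6.26e-04). Next came brain at 6.06 ± 0.20 CPM and spleen at 5.34 ± 3.70 CPM, which overlapped, and muscle at 0.194 ± 0.151 CPM. In spleen WT library 1 held 9.51 CPM and the other 5 libraries 2.44 to 4.202 CPM. The spleen log2 fold change of -0.57 (SE 0.49) was 0.14 without WT library 1.

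Kcnj1, Slc12a3 and Aqp3 were counted in spleen in both genotypes. Kcnj1 was at 1.71, 1.98 and 1.94 CPM in WT spleen and 1.48, 2.31 and 2.02 CPM in heterozygous spleen. For Slc12a3 the values were 0.962, 1.62 and 2.05 CPM against 2.19, 1.68 and 2.78 CPM. Aqp3 stood at 5.29, 4.65 and 4.45 CPM against 4.74, 5.57 and 4.52 CPM. The groups overlapped for all 3, and the log2 fold changes were 0.04 (SE 0.25), 0.52 (SE 0.35) and 0.04 (SE 0.19), each with an edgeR adjusted p of 0.99997. Those of Kcnj1 and Aqp3 changed sign without heterozygous library 2 (-0.11 and -0.05). WT kidney was 148 times WT spleen for Kcnj1, 539 times for Slc12a3 and 22.04 times for Aqp3, as ratios of mean CPM.

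**Figure D3:**
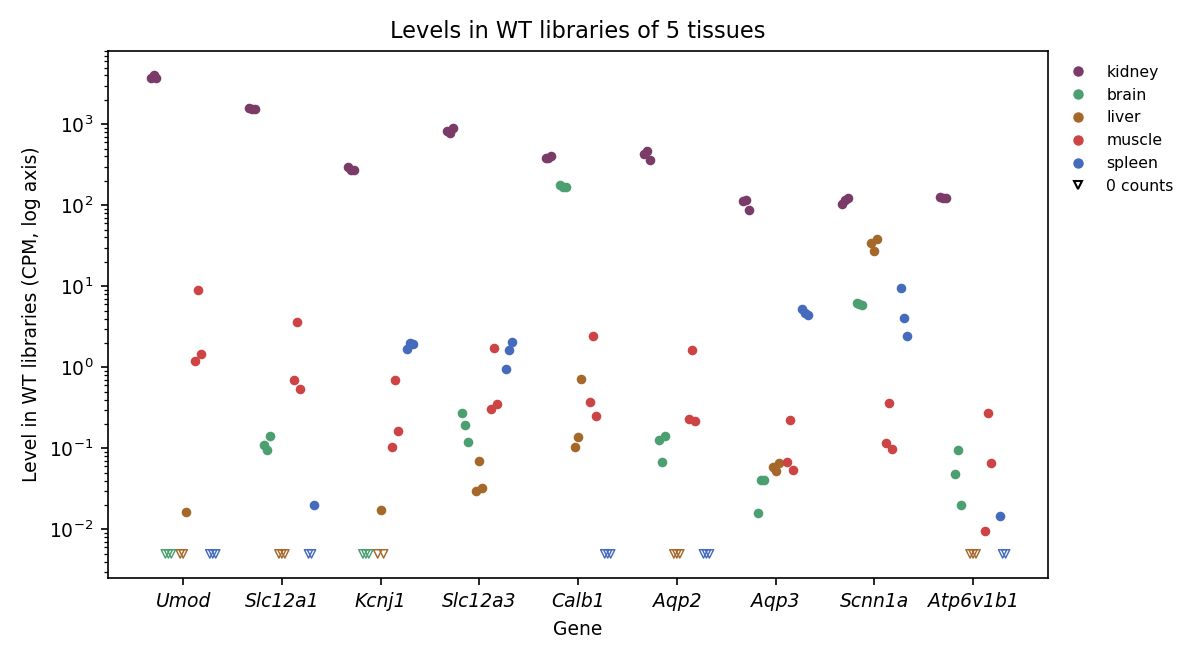
Level of each gene in the 15 WT libraries (CPM, TMM-scaled within tissue, log axis), 1 point per library and 1 colour per tissue; open triangles at the bottom are libraries with 0 counts. Kidney is highest for every gene, brain comes near it for Calb1 and liver for Scnn1a.

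The other levels outside kidney were low. Umod was at 0 counts in each of the 6 brain libraries and in WT spleen. Against 3 counts per library, WT kidney was thus at least 77012-fold higher than WT brain and at least 104697-fold higher than WT spleen. These bounds are ratios of CPM scaled within each tissue. Slc12a1, Aqp2 and Atp6v1b1 were at 0 counts in all 6 liver libraries. A count of 0 in these libraries allows up to 0.0498 CPM in WT brain, 0.0485 CPM in WT liver and 0.0367 CPM in WT spleen. Brain held Slc12a1 at 7 counts in each WT library, Aqp2 at 5 to 8 counts and Slc12a3 at 6 to 17 counts. In CPM, Slc12a1 was lower in each heterozygous brain library (0.0585 to 0.0908) than in any WT library (0.0963 to 0.141). Such a gap held for 4.1% of the genes tested in brain, but Slc12a1 was too low to be tested itself. Its counts in heterozygous brain were 4, 10 and 7, overlapping with WT, and heterozygous library 2 was the deepest of the 30 (131.6 M). Of the 9 genes 3 were tested in brain (Slc12a3, Calb1 and Scnn1a) and 2 in liver (Calb1 and Scnn1a), and 0 were called in either, where 0.0157% and 0.0193% of all genes were. At an unadjusted p under 0.05 they also numbered 0, beside 2.96% of all genes in brain (where the block took the calls over all genes from 3 to 22) and 4.56% in liver, and DESeq2 called 0 in both. In liver Calb1 was at 7, 8 and 44 counts in WT and 13, 7 and 11 counts in heterozygous libraries, and its log2 fold change of -1.13 (SE 0.74) became 0.26 without WT library 3.

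In spleen 5 of the 9 genes had almost no fragments in WT and a low level in each heterozygous library. Umod was at 0 counts in each WT library and at 158, 232 and 290 counts in heterozygous spleen, or 1.58, 3.20 and 3.03 CPM. The heterozygous mean was thus at least 71.0-fold higher, against 3 counts per WT library (edgeR adjusted p 0.0318). Slc12a1 was at 0, 0 and 2 counts in WT and 72, 98 and 154 counts in heterozygous spleen. The ratio of its summed counts, corrected for depth, was 152 (95% exact interval 41.6 to 1258, counting error only), and the edgeR adjusted p was 0.0350. These 2 genes passed the threshold and rose, beside 0.242% of all genes called in spleen. At an unadjusted p under 0.05 there were 4 of the 9 (Umod, Slc12a1, Aqp2 and Calb1), against 3.52% of all genes. These 4 passed the filter on low counts through their heterozygous libraries alone, so nothing is read from either count.

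The remaining 3 of the 5 did not pass. Aqp2 was at 0 counts in WT and at 21, 30 and 25 counts in heterozygous spleen. Its mean was at least 8.04-fold higher (edgeR adjusted p 0.0970). Calb1 was likewise at 0 counts and then at 15, 20 and 28 counts, at least 6.53-fold higher (edgeR adjusted p 0.116). Atp6v1b1 was at 1, 0 and 0 counts against 4, 14 and 15 counts, a ratio of 30.9 (95% exact interval 5.17 to 1257), and was too low to be tested. For each of the 5 genes the 3 heterozygous libraries lay above the WT libraries, which held for 4.35% of all genes tested. Umod, Slc12a1, Aqp2 and Calb1 passed the filter on low counts through their heterozygous libraries alone, so their number among the genes tested says nothing further. Leaving out any 1 of the 6 libraries ended both calls (edgeR adjusted p 0.0707 to 0.202 for Umod and 0.0709 to 0.253 for Slc12a1), and the count of all genes called in spleen fell from 45 to between 0 and 29 in those fits.

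Scaled to WT kidney, these 5 genes sat at a like share in each heterozygous spleen library. The share of the WT kidney mean was 0.0323% to 0.0504% in heterozygous library 1, 0.0707% to 0.156% in library 2 and 0.0626% to 0.126% in library 3. The 11 proximal tubule markers above 100 CPM in WT kidney, which are genes of another part of the nephron, had medians of 0.0460%, 0.0935% and 0.0936% in the same libraries. Their list of 12 summed to 2.08 to 2.42 CPM in WT spleen and 14.2 to 28.1 CPM in heterozygous spleen. Of its 10 genes tested, 8 did not overlap and were higher (4.35% of all genes tested). Slc22a6, Slc22a8, Miox and Kap were at 0 in all 3 WT libraries. They passed the filter on low counts through their heterozygous libraries alone, so nothing is read from this count of 8. Hepatocyte markers ran the other way in the same libraries, at 32.4 to 41.5 CPM in WT and 0.0400 to 0.193 CPM in heterozygous spleen, and exocrine pancreas markers reached 1644 CPM in heterozygous library 2. The part of these other tissues' transcripts in the spleen differences was not tested.

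Muscle showed the opposite direction. Umod was at 124, 918 and 134 counts in WT and 0, 1 and 41 counts in heterozygous muscle, Slc12a1 at 73, 370 and 49 against 0, 0 and 37 counts. Slc12a3 was at 32, 179 and 32 against 5, 1 and 5 counts. WT library 2 was the highest of the 6 for each of the 9 genes, and heterozygous library 3 was the highest of its genotype, in CPM, for 8 of the 9, Calb1 being the exception. Of the 7 genes tested 0 were called (0.0249% of all genes were), 6 had an unadjusted p under 0.05 (6.45% of all genes) and 6 had groups that did not overlap, all lower in heterozygous muscle (6.28% of all genes tested). The log2 fold changes of these 6 ran from -4.68 (Umod, SE 1.27, edgeR adjusted p 0.469) to -2.75 (Aqp2, SE 0.85, edgeR adjusted p 0.532). That of Slc12a3 was -4.32 (SE 0.89, edgeR p 0.00128, adjusted p 0.294). The 6 genes passed the filter on low counts through their WT libraries, where they were high, so nothing is read from these counts. DESeq2 called 3 of the 7 lower, with 159 genes called in all, and the fit of all 30 libraries called 6 of the 9, with 229 genes called in all.

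Without WT library 2 the muscle values were smaller, with -3.15 for Umod, -3.05 for Slc12a3 and -1.13 for Aqp2, and Scnn1a went from -0.60 to 0.25. In WT library 2 the 9 genes sat at 0.208% to 0.624% of their WT kidney means, with a median of 0.233%, and the 11 proximal tubule markers had a median of 0.242%. In WT libraries 1 and 3 the medians were 0.0456% and 0.0526% for the 9 genes and 0.0465% and 0.0415% for the proximal tubule markers. That marker list summed to 11.3 to 79.1 CPM in WT muscle and 0.690 to 7.04 CPM in heterozygous muscle. Among its 10 genes tested, 7 were apart and lower (6.28% of all genes tested). Of the list, Kap, Miox, Lrp2, Slc22a6, Slc34a1 and Slc5a12 were at 0 in heterozygous libraries 1 and 2. Tested genes at 0 there passed the filter on low counts through their WT libraries, so nothing is read from this count of 7. The part of the proximal tubule transcripts in these differences was not tested.

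**Figure D4:**
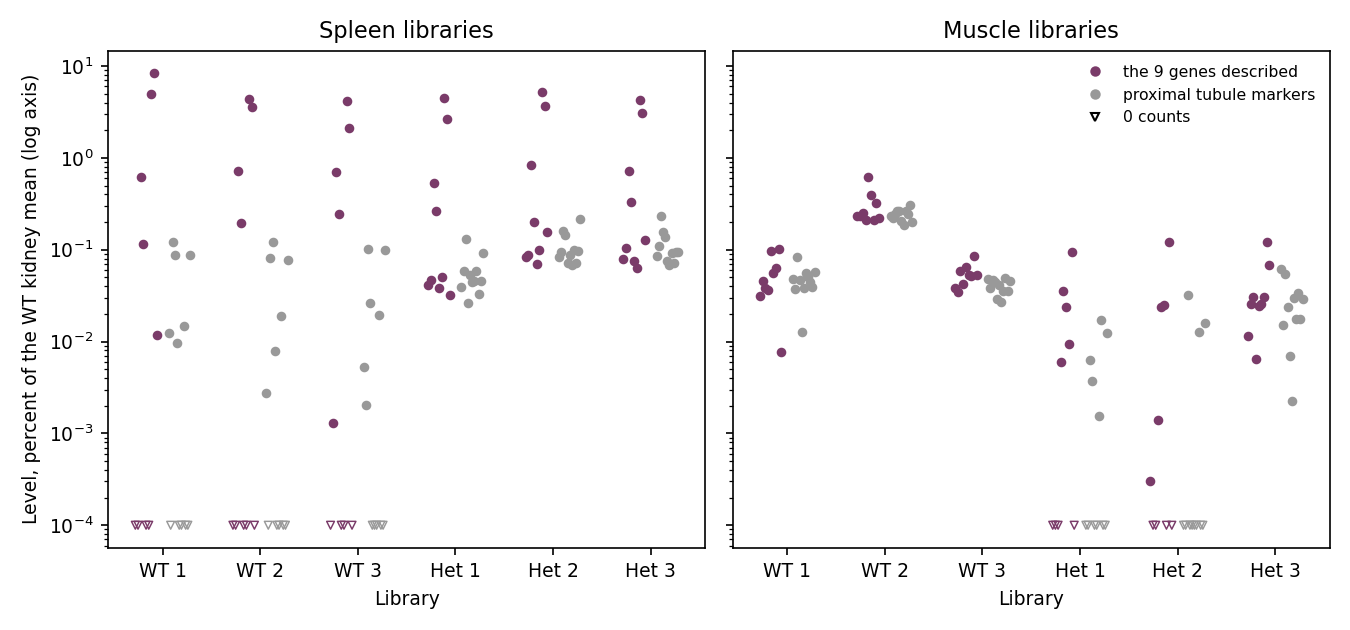
Level of the 9 genes (purple) and of 11 proximal tubule markers (grey) in each spleen and muscle library, as percent of the gene's mean in WT kidney (log axis; open triangles are 0 counts). In heterozygous spleen and in WT muscle both sets cluster near a common share, highest in muscle WT 2 with medians of 0.233% and 0.242%, while 4 of the 9 genes keep a higher share than the other 5 in every spleen library.

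Whether the genotype effect differed between tissues was tested with an interaction term over all 30 libraries. The effect differed for 4 of the 9 genes (0.758% of 24262 genes were called): Umod (edgeR adjusted p 0.00354), Slc12a1 (0.00836), Slc12a3 (0.0125) and Calb1 (0.0155). The spleen and muscle counts of these genes were low, as given above, and the genes shifted together in the same libraries. Nothing is therefore read from this count of 4. Set against kidney alone, the spleen effect was higher for Umod (difference of log2 fold changes 10.42, SE 1.90, adjusted p 0.0124) and Slc12a1 (7.00, SE 1.45, adjusted p 0.0288). Since Umod was at 0 counts in WT spleen, its fitted difference depends on the prior count. The muscle effect was lower than that in kidney for Slc12a3 (-4.37, SE 0.77, edgeR adjusted p 0.0132) and Calb1 (-3.96, SE 0.82, edgeR adjusted p 0.0380). With the replicate number as a block the call was lost for Umod (edgeR adjusted p 0.117) and Slc12a1 (0.0772). The number of the 9 called was 2 when WT replicate 2 of every tissue was left out. It was 1 without heterozygous replicate 1, 0 without heterozygous replicate 2 and 2 without heterozygous replicate 3. Over all genes the calls fell from 184 to between 35 and 145 in the fits without a replicate. No interaction was called for Scnn1a (edgeR adjusted p 1).

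Genes nearest in pattern were sought for 4 of the 9 by the root mean square difference of centred log2(CPM + 0.5) over the 30 libraries, among 9804 genes with at least 10 CPM in kidney. For Umod they were Slc34a1 (0.34), Miox (0.44) and Slc12a1 (0.61), of which Slc34a1 and Miox are proximal tubule genes. For Slc12a3 they were Slc22a12 (0.43), Kcnj1 (0.62) and Spink1 (0.63). Those of Aqp2 were Slco1a6 (0.25), Slc22a19 (0.26) and Tmem174 (0.28). Among those of Atp6v1b1 were AI314278 (0.11) and Clrn3 (0.12). The measure takes in the gap between kidney and the other tissues along with the differences between libraries of 1 tissue.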

How the data were processed

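The authors deposited raw counts per gene, 1 table per tissue, made with featureCounts 1.5.0-p3 on Ensembl release 86 of GRCm38, per the file headers. The counting used exons, ignored strand and dropped fragments that fell in several genes or aligned to several places, per the same headers. The length column holds merged exon bases. Read length and trimming are not given in the sources used here. A symbol was found for 48349 of 48709 gene identifiers.

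Counts were analysed with edgeR 4.0.16 in R 4.3.3 (filterByExpr, TMM, quasi-likelihood F-test, Benjamini-Hochberg adjustment, called under 0.05), with the 6 libraries of each tissue fitted alone. Other fits covered all 30 libraries with a tissue by genotype interaction and the 15 WT libraries. DESeq2 1.42.0, other scalings, filters, the replicate block and leave-one-out fits were alternatives. Scripts were tested on simulated data. Exact permutation tests were 2-sided and unpaired. Each edgeR SE was back-calculated as the absolute log2 fold change divided by the square root of F, and is not a fitted standard error. For a gene at 0 counts in 1 group it depends on the prior count.

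The 9 genes and all gene lists were chosen with earlier results of these data known. The text names the 9 genes, Ctcf, the 2 genes of smallest p in each segment, and the nearest genes in pattern, of which 1 is not reported here. Others are said to be chosen later or only name a marker list.

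The design names 3 mice of each genotype. Whether a replicate number marks the same mouse in each tissue is not stated. Deviations of same-numbered WT and heterozygous libraries correlated in kidney (r 0.273, 0.237 and 0.227) and brain (0.282, 0.495 and 0.641), all above 0.1. These were taken as paired, but the main fits had no replicate block, so their kidney and brain values are unpaired. The block was run as an alternative only. Intervals and floors of 3 counts cover counting error only, since fragments carry no molecular identifiers. Start regions are from RefSeq (GRCm38.p6).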

Additional observations from a re-analysis of the deposited data

Results flagged for a closer look

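The effect of genotype differed between tissues by the edgeR interaction test for 4 of the 9 genes. Nothing is read from this count, since these genes had low spleen and muscle counts and shifted together in the same libraries. Umod (adjusted p 0.00354) was at least 71.0-fold higher in heterozygous than in WT spleen and had log2 fold changes of -0.07 in kidney and -4.68 in muscle. Slc12a1 (adjusted p 0.00836) had a summed count of 324 in heterozygous spleen beside 2 in WT spleen, and log2 fold changes of -0.07 in kidney and -3.60 in muscle. For Slc12a3 (adjusted p 0.0125) the log2 fold changes were 0.06 in kidney, 0.52 in spleen and -4.32 in muscle. Calb1 (adjusted p 0.0155) had log2 fold changes of 0.76 in kidney and -3.21 in muscle and was at 0 counts in WT spleen. With the replicate number as a block within each tissue the interaction was called for Slc12a3 (adjusted p 0.0305) and Calb1 (0.0271) and not for Umod (0.117) or Slc12a1 (0.0772). In the same libraries the proximal tubule markers summed to 2.08 to 2.42 CPM in WT and 14.2 to 28.1 CPM in heterozygous spleen, and to 11.3 to 79.1 CPM in WT and 0.690 to 7.04 CPM in heterozygous muscle, and their part in these results was not tested.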

How the results depend on the processing

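Of 364 alternative values for heterozygous over WT, 315 kept their direction and side of the threshold, 14 were weaker, 13 stronger and 22 reversed, while of 288 for WT kidney over another tissue 283 were kept and 5 were stronger. The reversals were all of differences that were not called. In brain, Calb1 (main value -0.0005) was 0.0024 with DESeq2 and with DESeq2 size factors in edgeR, 0.016 with all genes of at least 1 count and 0.067 with all 30 libraries in the fit. Scnn1a in brain was 0.0098 and 0.061 under the last 2 settings. Leaving out 1 library in turn gave log2 ranges that cross 0 in kidney for Slc12a3 (-0.014 to 0.16) and Aqp2 (-0.10 to 0.59). In brain such ranges were found for Slc12a3 (-0.16 to 0.35), Calb1 (-0.041 to 0.054) and Scnn1a (-0.079 to 0.039), in liver for Calb1 (-1.56 to 0.26) and in muscle for Scnn1a (-0.91 to 0.25). Those in spleen were Kcnj1 (-0.11 to 0.20), Aqp3 (-0.053 to 0.12) and Scnn1a (-0.92 to 0.14). The causes were not tested.

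The number of the 9 genes called higher in kidney went from 0 to 1 (Calb1) with DESeq2 and with at least 1 count. Calls lower in muscle went from 0 to 3 with DESeq2, 1 with at least 1 count and 6 with all 30 libraries. The 2 calls in spleen became 4 with DESeq2, 0 with at least 10 counts in every library (which leaves out genes at 0 in WT), 0 with the replicate block and 0 to 0 with 1 library left out. The 4 interaction calls became 2 with the replicate block, 7 with the DESeq2 likelihood ratio test and 0 to 4 with a replicate left out. Over all genes the 184 interaction calls became 35 to 734 across the alternatives, and 35 to 145 with a replicate left out. The block changed no other call of the 9 genes. For same-numbered libraries r was -0.525, -0.162 and 0.430 in spleen, 0.0383, 0.112 and 0.274 in liver and 0.0840, 0.326 and 0.439 in muscle. The 3 values of these tissues were not all above 0.1, so there the numbers were not taken as pairs. Muscle replicates 2 and 3 were nevertheless above the highest value in kidney (0.273).

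Over all genes, the 4 calls in kidney became 175 with DESeq2, 45 with at least 1 count, 2 with at least 10 counts, 13 with all 30 libraries, 21 with the block and 3 to 56 with 1 library left out. The 3 in brain became 28, 6, 1 (all 30 libraries), 22 (block) and 0 to 1. The 3 in liver became 72, 16, 37, 7 and 1 to 17, and the 4 in muscle 159, 66, 229, 118 and 1 to 2. The 45 in spleen became 187, 74, 250, 0 and 0 to 29, and 0 with at least 10 counts. Members under the filter on low counts have no value in these fits. In brain, liver, muscle and spleen, several of the 9 genes rest on under 50 counts a library, which limits the size of difference that can be seen, and 3 libraries a genotype limit the rest.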

Other observations

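Within the thin limb and inner medulla subset, 3 of 6 genes were lower in every heterozygous kidney library than in any WT library, beside 5.28% of all genes. Akr1b3, encoding aldose reductase, which makes the osmolyte sorbitol, is not covered by the naming rule and was picked on its values. It was at 411, 367 and 334 CPM in WT and 47.7, 101.8 and 327 CPM in heterozygous kidney (log2 fold change -1.22, SE 0.57, edgeR p 0.0628). Heterozygous library 3 nearly reached the lowest WT library, and heterozygous library 1 was the lowest. The other osmolyte gene of the subset, Slc5a3, which takes up myo-inositol, overlapped between genotypes (0.03, SE 0.22).

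Elf5, a transcription factor gene of principal cells picked in the same way, was at 10.3, 13.5 and 13.8 CPM in WT and 1.78, 5.41 and 11.5 CPM in heterozygous kidney. Its groups overlapped (-1.004, SE 0.52, edgeR p 0.0894). Aqp2, Elf5, Slc14a2 and Akr1b3 were all lowest in heterozygous library 1, and they were put together after their values were seen. Aqp4 was lowest there too (54.0 CPM). So were, picked in the same way, the principal cell genes Fxyd4 (33.6 CPM), Gata3 (15.3 CPM) and Grhl2 (10.4 CPM). The rest of the principal cell genes were lowest elsewhere, among them Aqp3 (88.5 CPM in WT library 3) and Scnn1a (104 CPM in WT library 1).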
